A study of Mus musculus with 9 samples.

Results

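The motile cilia axoneme genes are the 71 genes, of the 55291 in the deposited table, whose symbol is Foxj1 or starts with Dnah, Dnai, Dnaaf, Rsph, Tekt, Cfap or Drc followed by a digit. They were picked by symbol alone, with no measured value. By role they comprised the transcription factor Foxj1, 5 outer arm dynein heavy chains, 10 inner arm heavy chains, 5 dynein arm assembly factors, 8 radial spoke genes, 3 genes of the nexin-dynein regulatory complex, 5 tektins and 33 cilia and flagella associated proteins. The remaining member, Dnah2os, is a noncoding transcript antisense to Dnah2 and encodes no dynein. No symbol in the table started with Dnai and a digit, so the dynein intermediate chains, listed as Dnaic1 and Dnaic2, were outside the set. Of the 71 genes, 69 had at least 10 counts summed over all mice and were tested, among 23225 tested genes.

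The data are RNA-seq profiles of the main olfactory epithelium, dissected from 9 C57BL/6 mice that were 8 to 12 weeks old. There were 3 wild-type mice, 3 Ms4a cluster knockout mice (Ms4a cluster-/-, the whole gene cluster deleted with CRISPR/Cas9) and 3 Ms4a6c knockout mice (Ms4a6c-/-, a single gene removed by homologous recombination). The wild-type mice are described as littermates, without the knockout line they came from. The paper describes MS4A proteins as odorant receptors of the necklace sensory neurons, except MS4A1, which it places in sensory neurons outside the necklace. The comparisons ask which transcripts of the epithelium differ when all MS4A proteins, or MS4A6C alone, are missing.

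The axoneme is the microtubule core of a beating cilium. Dynein arms, built from very large heavy chains, slide neighbouring microtubule doublets against each other, while the radial spokes, the central apparatus and the nexin-dynein regulatory complex control that sliding, and tektins lie as filaments inside the doublet wall. FOXJ1 is the transcription factor that switches on this programme together with RFX factors. In the nose, beating cilia are carried by the multiciliated cells of the respiratory lining, whereas the cilia of mouse olfactory sensory neurons house odor transduction and do not beat.

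The regulatory sequence of these genes is shown first, since FOXJ1 and RFX factors act at their promoters. RefSeq promoters (250 bases before to 50 bases after the start, build GRCm38.p6) were matched by symbol for 57 of the 71 genes. A pair of RFX half-sites, GTNNCC followed by GGNNAC after 1 to 3 bases, was found on either strand in 14.1% of the 64 promoter windows of these genes, and in 3.49% of the 32851 windows of all genes. A forkhead core, TGTTTAC on either strand, was found in 6.25% and 3.65% of the same windows. The 2 motifs do not overlap in sequence, and 1 window of the set, that of Cfap43, held both. The 7 stretches below lie upstream of a start site, carry every upstream match of these 6 genes, and run 5′ to 3′ on the gene's own strand with the matched motif in capitals.
Cfap206, chr4:34730207-34730251, minus strand: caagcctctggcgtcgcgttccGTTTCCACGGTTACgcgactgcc
Cfap126, chr1:171122941-171122998, plus strand: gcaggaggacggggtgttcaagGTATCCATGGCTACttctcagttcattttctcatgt
Cfap298, chr16:90935002-90935059, minus strand: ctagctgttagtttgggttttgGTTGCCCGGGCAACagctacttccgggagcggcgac
Cfap298, chr16:90934882-90934940, minus strand: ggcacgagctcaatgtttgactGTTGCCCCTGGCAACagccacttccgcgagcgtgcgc
Cfap58, chr19:47937631-47937687, plus strand: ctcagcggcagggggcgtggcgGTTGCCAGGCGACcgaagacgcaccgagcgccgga
Tekt4, chr17:25471408-25471465, plus strand: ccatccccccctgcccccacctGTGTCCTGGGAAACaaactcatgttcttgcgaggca
Cfap43, chr19:47837388-47837455, minus strand: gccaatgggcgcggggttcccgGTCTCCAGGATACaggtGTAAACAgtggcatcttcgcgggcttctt
In Cfap43 the first run of capitals is the RFX pair and the second is the forkhead core, read as its reverse complement. The stretches of Tekt4, Cfap126, Cfap43 and Cfap298 lie within the gene spans of GENCODE M21, before a RefSeq start inside the span. A match of letters is a description of the window and not a measured binding site. The other members with an RFX pair were Cfap77, Dnaaf5 and Rsph9, and those with a forkhead core were Cfap20, Dnah17 and Tekt3.

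The libraries held between 13954591 and 21987174 expected counts. Ms4a6c had 53.95, 90.34 and 81.53 expected counts in the wild-type mice, 0 in all cluster knockout mice, and 0, 2.35 and 2 in the Ms4a6c knockout mice, and all 21 listed Ms4a genes were at 0 in the cluster knockout, so the libraries matched their labels. The tissue label was borne out by Omp, the marker of mature olfactory neurons, at 4017 to 5214 CPM (counts per 1000000 counts of the library's effective size). Wild-type mouse 1 and cluster knockout mouse 2 stood apart: 18 nasal gland transcripts summed to 266960 and 292673 CPM there and to between 18593 and 51521 CPM in the other 7 libraries. These are called the gland-rich libraries below, and some of the results are also given without them. The sums rested on part of the list. Of the 18 transcripts, 9 were higher in both libraries than the mean of the other mice of the same genotype, and 8 were lower in both. Spermatid markers, which would accompany a sperm flagellum programme, summed to at most 0.0820 CPM in any mouse. In such bulk tissue, fewer cells of a type and less RNA per cell cannot be told apart.

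The axoneme genes were a small part of the transcriptome. Summed over the 71 genes, the level was 2903, 2867 and 2628 CPM in the wild-type mice, 2585, 2807 and 2736 CPM in the cluster knockout mice, and 2549, 2984 and 2867 CPM in the Ms4a6c knockout mice. The ranges of all genotypes overlapped. The means were 2799 ± 149, 2709 ± 113 and 2800 ± 225 CPM (SD, n = 3 each), so the largest difference between genotype means was under 1 SD of the Ms4a6c knockout mice. The genes took 0.198% to 0.322% of a library's counts, with the lowest shares in the gland-rich libraries.

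Foxj1 (chr11:116330704-116335399, minus strand, GRCm38), the regulator of the programme, had 142, 128 and 121 CPM in the wild-type mice, 132, 138 and 134 CPM in the cluster knockout mice, and 120, 162 and 161 CPM in the Ms4a6c knockout mice. The Ms4a6c knockout group held both the lowest and the highest value of the 9 mice, and the other groups lay within its range. The log2 fold change was 0.05 (SE 0.11) for the cluster knockout against wild-type, 0.18 (SE 0.11) for the Ms4a6c knockout against wild-type and -0.13 (SE 0.11) for the cluster knockout against the Ms4a6c knockout. The edgeR adjusted p-values were 0.999, 0.590 and 0.740. Single mice moved these values: with Ms4a6c knockout mouse 1, 2 or 3 left out the second was 0.31 (adjusted p = 0.166), 0.10 or 0.12, and the third -0.26 (adjusted p = 0.295), -0.06 or -0.07. Without the gland-rich libraries the 3 fold changes were 0.09, 0.25 and -0.16 on the log2 scale, none of them called.

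Levels of different genes were compared per kilobase of the longest annotated transcript, as CPM per kilobase in the 3 wild-type mice. Foxj1 stood at 49.7 ± 4.01 CPM per kilobase, higher than 95.3% of all tested genes and at rank 6 in the set. Radial spoke and regulatory complex genes were the most abundant structural classes, with medians of 19.0 and 27.5 CPM per kilobase, and inner arm heavy chains the least abundant, with a median of 1.296 CPM per kilobase. With the mean in place of the longest transcript length these medians were 26.6, 47.1 and 2.79 CPM per kilobase, in the same order.

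Among the outer arm heavy chains, Dnah5 (8.11 ± 1.87 CPM per kilobase), Dnah9 (6.46 ± 1.16) and Dnah11 (4.95 ± 0.52), the motors of respiratory cilia, were far above Dnah8 (0.191 ± 0.077) and Dnah17 (0.0381 ± 0.014), the paralogs known from sperm flagella. Dnah5 and Dnah9 differed by less than their spread, and with the mean transcript length the order was Dnah9 (20.8 CPM per kilobase), Dnah11 (11.8) and Dnah5 (8.11). Among the inner arm heavy chains the highest levels per kilobase were those of Dnah6 (3.51 ± 0.52), Dnah3 (1.86 ± 0.23) and Dnah10 (1.73 ± 0.13), and the last 2 differed by less than their spread. With the mean length Dnah6 (4.23) and Dnah10 (4.05) led, and Dnah2 (3.26) came before Dnah3 (3.16). Dnah14 was the lowest at 0.0255 CPM per kilobase, with 2.33 to 10.8 expected counts in a mouse. Dnah7a, Dnah7b and Dnah7c, at 0.673, 0.618 and 0.723 CPM per kilobase, are near-identical copies (96.9% identity over 12230 bases between Dnah7a and Dnah7b), and how the reads were divided among them is uncertain.

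The assembly factors, which fold and preassemble dynein arms in the cytoplasm, lay close together, from 8.88 ± 0.69 CPM per kilobase for Dnaaf5 through Dnaaf1 (5.37 ± 0.79) and Dnaaf3 (4.47 ± 0.44) to 3.33 ± 0.38 for Dnaaf4. The radial spoke genes spread more widely. Rsph9 (77.0 ± 4.58 CPM per kilobase) and Rsph1 (71.7 ± 3.57), which encode spoke head proteins, had overlapping ranges over the mice, and were followed by Rsph3b (25.7 ± 2.82) and Rsph3a (19.1 ± 0.43), a pair with 99.4% identity over 1823 bases whose reads may have been shared and whose order turned with the mean length (33.7 for Rsph3b and 41.2 for Rsph3a). Rsph4a, another spoke head gene of respiratory cilia, was at 18.9 ± 1.06 CPM per kilobase, while its sperm paralog Rsph6a had 0 to 4 expected counts in a mouse and was not tested. The nexin-dynein regulatory complex genes ran from Drc3 (34.6 ± 2.19) and Drc1 (27.5 ± 1.46) to Drc7 (12.9 ± 1.36), with Drc1 (74.7) above Drc3 (47.1) by the mean length. Tekt1 (32.9 ± 3.91 CPM per kilobase) led the tektins, then Tekt4 (7.98 ± 2.79) and Tekt2 (4.56 ± 1.60), whose ranges over the mice overlapped, with Tekt3 (0.724 ± 0.11) and Tekt5 (0.269 ± 0.020) far lower.

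The cilia and flagella associated proteins covered the widest range. Cfap36 had the highest level of all members at 102 ± 3.61 CPM per kilobase, followed by Cfap126 (79.8 ± 6.78), a doublet protein involved in the positioning of basal bodies, and Cfap69 (68.3 ± 2.46), a central apparatus protein that is also found in the cilia of olfactory sensory neurons. Cfap69 had the most reads of any member, with 325, 349 and 341 CPM in the wild-type mice. Cfap97d1 had 1 expected count in 1 cluster knockout mouse and 0 in the other 8 mice, which allows up to 0.123 to 0.299 CPM per library. The order of these levels depended on the transcript length used: with the mean length Cfap36 stayed first, Cfap69 (171 CPM per kilobase) passed Cfap126 (127), and 10 of the 71 genes moved by at least 10 places, by up to 18 (Cfap57, from rank 19 to 37). Of the 71 genes, 30 have an exon that overlaps another gene on the opposite strand.

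**Figure D1:**
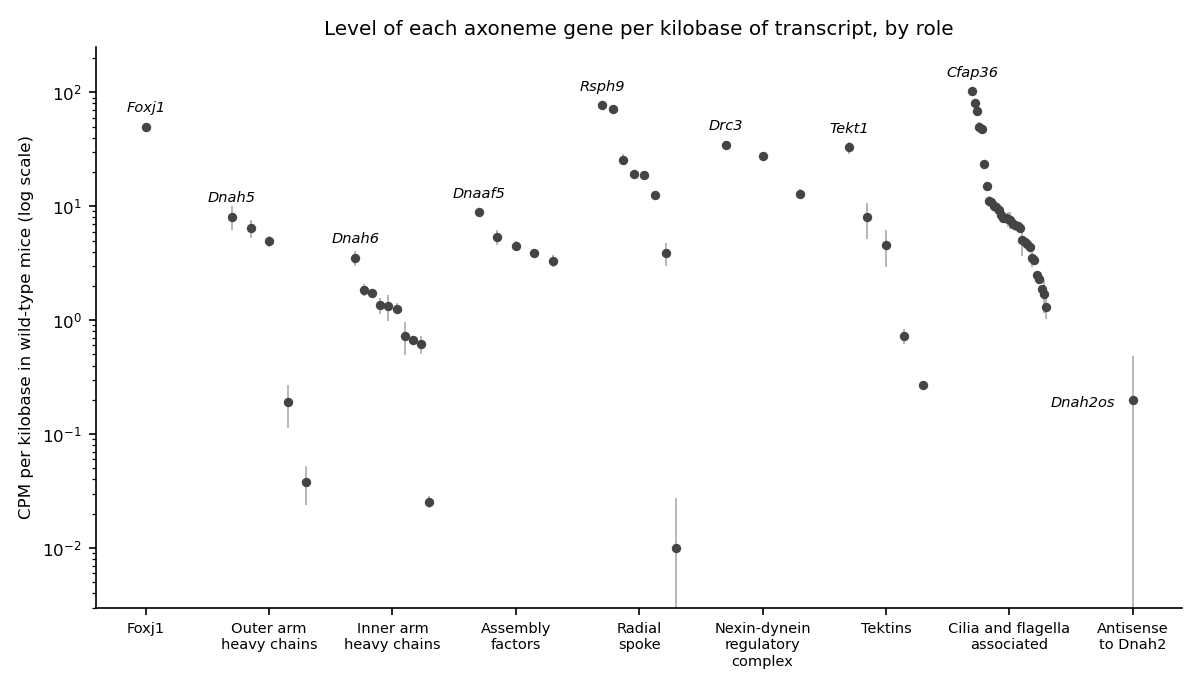
Each point is 1 axoneme gene at its mean CPM per kilobase of longest transcript over the 3 wild-type mice (log axis), with SD bars, grouped by role; bars that would reach 0 run off the axis, and Cfap97d1, at 0 in the wild-type mice, is not drawn. Cfap36, Rsph9 and Foxj1 lie near the top, and inner arm heavy chains lie at or below 3.51 CPM per kilobase.

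The first comparison asks what changed in the epithelium when the whole Ms4a cluster was missing. Of the 69 tested axoneme genes, 0 passed an edgeR adjusted p of 0.05, where 0.0258% of all tested genes did. At an unadjusted p under 0.05 there were 0 axoneme genes, against 4.93% of all genes, and DESeq2 called 0 as well. The CPM values of the genotypes did not overlap for 5 of the 69 genes, 2 higher and 3 lower in the knockout, or 7.25%, where 9.87% of all tested genes did not overlap. The median log2 fold change of the 69 genes was -0.03, beside 0.01 over all tested genes, and 64 of the 69 lay within 0.25 of 0.

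The genes with the smallest p-values are given as values only, since none passed the test (the smallest adjusted p was 0.968). Cfap69 had 324, 288 and 314 CPM in the cluster knockout mice against 325, 349 and 341 CPM in wild-type. All 3 knockout values were below all wild-type values, the closest by under 1 CPM, with a log2 fold change of -0.13 (SE 0.07), which was -0.09 without cluster knockout mouse 2. Cfap46, another central apparatus gene, had 22.8, 24.1 and 24.3 CPM against 33.8, 27.4 and 24.9 CPM. These groups also did not overlap, with wild-type mouse 1, a gland-rich library, the highest, and the log2 fold change was -0.27 (SE 0.16). It was -0.15 (SE 0.17) without the gland-rich libraries and -0.14 (SE 0.16) without wild-type mouse 1 alone. Rsph3a had 45.1, 48.4 and 45.6 CPM against 42.8, 43.4 and 41.5 CPM, a log2 fold change of 0.12 (SE 0.06, unadjusted p = 0.0555), while its near-identical partner Rsph3b overlapped between the genotypes. Cfap47, also of the central apparatus, had a log2 fold change of -0.25 (SE 0.14) and overlapped. The Cfap47 value was -0.19, -0.17 and -0.40 without cluster knockout mouse 1, 2 and 3, and -0.17 without the gland-rich libraries. Cfap36 had non-overlapping values of 151 to 161 CPM against 164 to 176 CPM, a log2 fold change of -0.11 (SE 0.06). Dnah14 rested on 10.72, 10.76 and 10.7 expected counts in the knockout mice against 5.59, 5.75 and 5.8 in wild-type, with a log2 fold change of 0.94 (SE 0.44), or 0.59 without cluster knockout mouse 2, and it overlaps an exon of Lbr on the opposite strand.

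The second comparison asks what changed when Ms4a6c alone was missing. Again 0 of the 69 genes passed the edgeR adjusted p of 0.05, where 0.435% of all tested genes did, and DESeq2 called 0. At an unadjusted p under 0.05 there were 4 genes, 1 higher and 3 lower in the knockout, which is 5.80% of the 69 where 10.5% of all tested genes reached it. The values did not overlap for 5 genes, 2 higher and 3 lower, or 7.25% against 18.3% of all tested genes. The median log2 fold change was 0.00, as over all tested genes, and 63 of the 69 lay within 0.25 of 0.

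Tekt4 (chr17:25454615-25476602, plus strand), whose RFX pair printed above lies before a start site inside this span, came closest. It had 17.1, 22.6 and 18.7 CPM in the Ms4a6c knockout mice against 17.0, 11.1 and 8.65 CPM in wild-type. The knockout mice were all higher, but wild-type mouse 1 lay within 1 CPM of the lowest of them. The log2 fold change was 0.67 (SE 0.22, edgeR adjusted p = 0.297). Without the 2 gland-rich libraries, of which wild-type mouse 1 is one, it was 0.97 (SE 0.17) with an edgeR adjusted p of 0.0326, where 1.54% of 22710 tested genes were called. This alternative was chosen after the data had been seen, and over all 13 alternatives the adjusted p ran from 0.0326 to 0.613. The other tektins overlapped between the genotypes.

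Of the genes with lower values, Cfap58, a gene of sperm flagellum assembly, had 23.7, 29.5 and 26.6 CPM in the Ms4a6c knockout mice against 30.4, 33.4 and 30.0 CPM in wild-type, without overlap. Its log2 fold change was -0.24 (SE 0.09, adjusted p = 0.364). Drc3 had 71.6, 80.2 and 74.0 CPM against 84.2, 89.6 and 79.0 CPM, which overlap, with a log2 fold change of -0.16 (SE 0.06, adjusted p = 0.406). Cfap74, of the central apparatus, had 29.4, 31.8 and 32.1 CPM against 30.2, 24.995 and 25.1 CPM, which overlap, at 0.22 (SE 0.10, adjusted p = 0.479). Without the gland-rich libraries the Cfap74 value was 0.31 (SE 0.08, adjusted p = 0.0964). Dnah10, an inner arm heavy chain, had non-overlapping values with a log2 fold change of -0.21 (SE 0.13). Dnah14 had 3.62, 2.35 and 2.33 expected counts in the knockout mice against the wild-type counts above. Those counts are too few for a fold that does not depend on the prior, and the fitted log2 fold change was -1.33 (SE 0.51, adjusted p = 0.392).

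**Figure D2:**
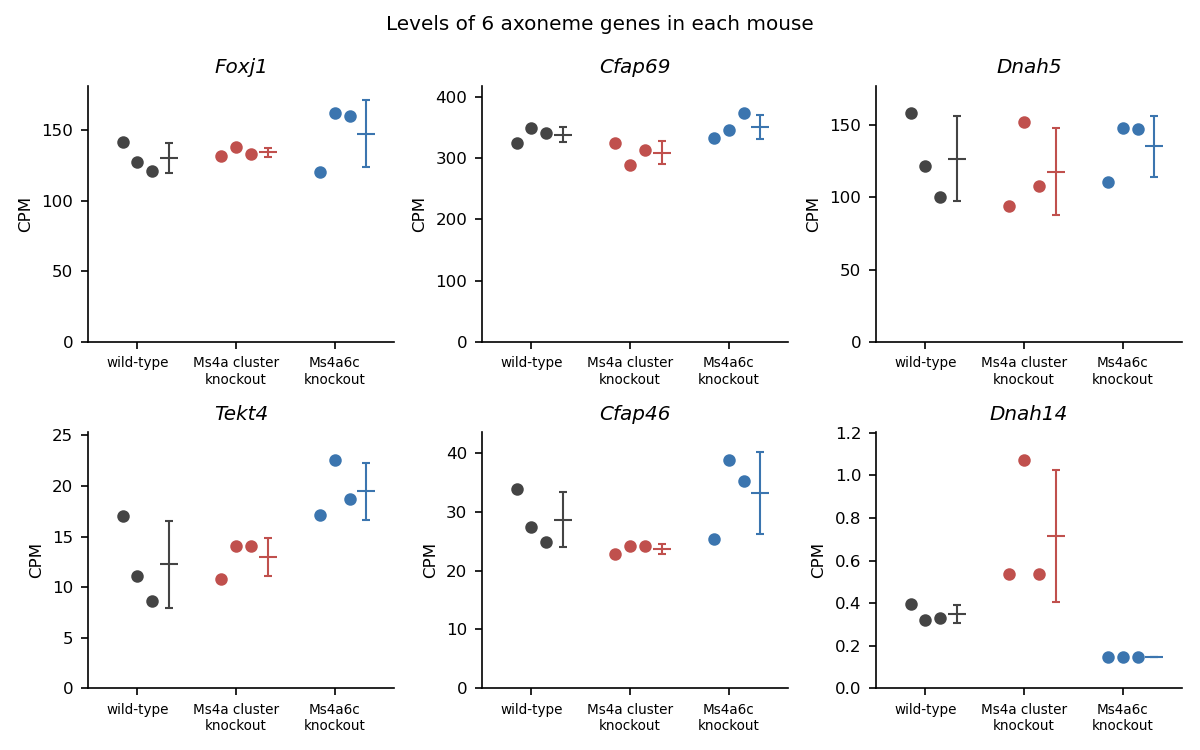
CPM of Foxj1, Cfap69, Dnah5, Tekt4, Cfap46 and Dnah14 in each of the 9 mice (points, replicates 1 to 3 from left to right in each genotype), with the mean and SD of each genotype beside them; each axis starts at 0. Tekt4 lies highest in the Ms4a6c knockout, with wild-type mouse 1 close to it, and all Dnah14 values are at most 1.07 CPM.

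The knockouts were also compared with each other. Again 0 of the 69 genes passed the edgeR adjusted p of 0.05, where 0.443% of all tested genes did, and DESeq2 called 0. At an unadjusted p under 0.05 there were 6 genes, 2 higher and 4 lower in the cluster knockout, or 8.70% where 9.37% of all tested genes reached it. The values did not overlap for 8 genes, 3 higher and 5 lower, or 11.6% where 16% of all tested genes did not overlap. The median log2 fold change was -0.00 beside 0.01 over all tested genes. Cfap46, with 25.5, 38.8 and 35.2 CPM in the Ms4a6c knockout mice, was lower in all cluster knockout mice, at -0.48 (SE 0.15, adjusted p = 0.354). Tekt4, with 10.8, 14.1 and 14.1 CPM in the cluster knockout mice, was lower than in all Ms4a6c knockout mice, at -0.59 (SE 0.22, adjusted p = 0.439). Cfap69, with 333, 346 and 373 CPM in the Ms4a6c knockout mice, and Cfap74 were likewise lower without overlap, at -0.18 (SE 0.07) and -0.25 (SE 0.10). Cfap57, an inner arm assembly gene, had 40.3, 53.1 and 45.7 CPM in the cluster knockout mice against 33.5, 38.1 and 41.3 CPM, which overlap, at 0.30 (SE 0.12, adjusted p = 0.460). Dnah14 had the smallest p of all (unadjusted 0.000892, adjusted 0.109) on the few counts given above. This comparison shares each knockout's libraries with one of the comparisons before it, so its values are not independent of those.

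The size of change that could be seen follows from the spread. For the 60 axoneme genes with a mean of at least 5 CPM, the 95% interval of a log2 fold change reached a median of 0.258 to either side in the comparison of the cluster knockout with wild-type, and about as far in the others. Among those genes the fitted log2 fold changes ran from -0.27 to 0.20, from -0.31 to 0.67 and from -0.59 to 0.30 in the order above. Such an interval is not adjusted for the number of tested genes. With 3 mice per genotype, the change needed for a call was therefore larger than this interval. Tekt4, at 0.67 in the Ms4a6c knockout against wild-type, was not called. A p above the threshold does not show that the genotypes were equal.

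**Figure D3:**
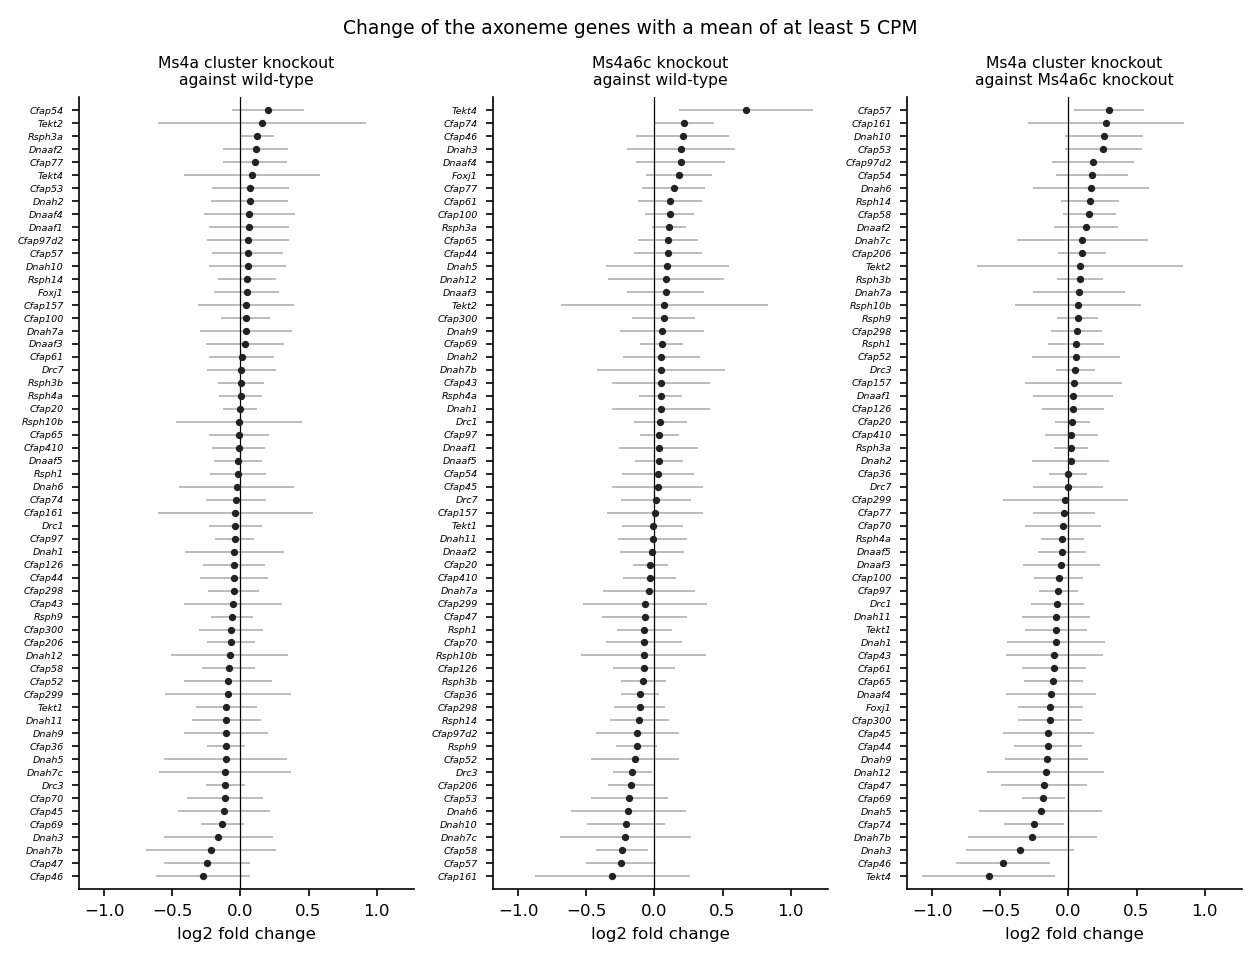
Log2 fold change (horizontal) of the 60 axoneme genes with a mean of at least 5 CPM in the 3 comparisons, each panel sorted by value, with 95% intervals from the edgeR fit; the vertical line marks no change. Most intervals include 0, and Tekt4 is at the end of the last 2 panels, at 0.67 and -0.59.

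Mice of the same genotype also differed from each other. Over the 9 mice, the coefficient of variation of the 60 genes had a median of 10.4% (3.63% for Cfap20 to 32.02% for Tekt2), beside 8.92% for the 12816 tested genes with a mean of at least 5 CPM. The lowest of the 9 values fell in Ms4a6c knockout mouse 1 for 25 of the 60 genes, where 9.14% of all such genes had their lowest value. The highest fell in Ms4a6c knockout mouse 2 for 20 of the 60, where 10.1% of all such genes had theirs. In the gland-rich libraries, it fell in cluster knockout mouse 2 for 14, beside 16.9% of all such genes, and in wild-type mouse 1 for 8, beside 13.8%. The Ms4a6c knockout thus held both the lowest and the highest values of many of these genes. In Dnah5 the spread within each genotype was wider than the differences between genotype means, with 158, 122 and 100 CPM in wild-type, 94.0, 152 and 108 CPM in the cluster knockout and 111, 148 and 147 CPM in the Ms4a6c knockout.

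**Figure D4:**
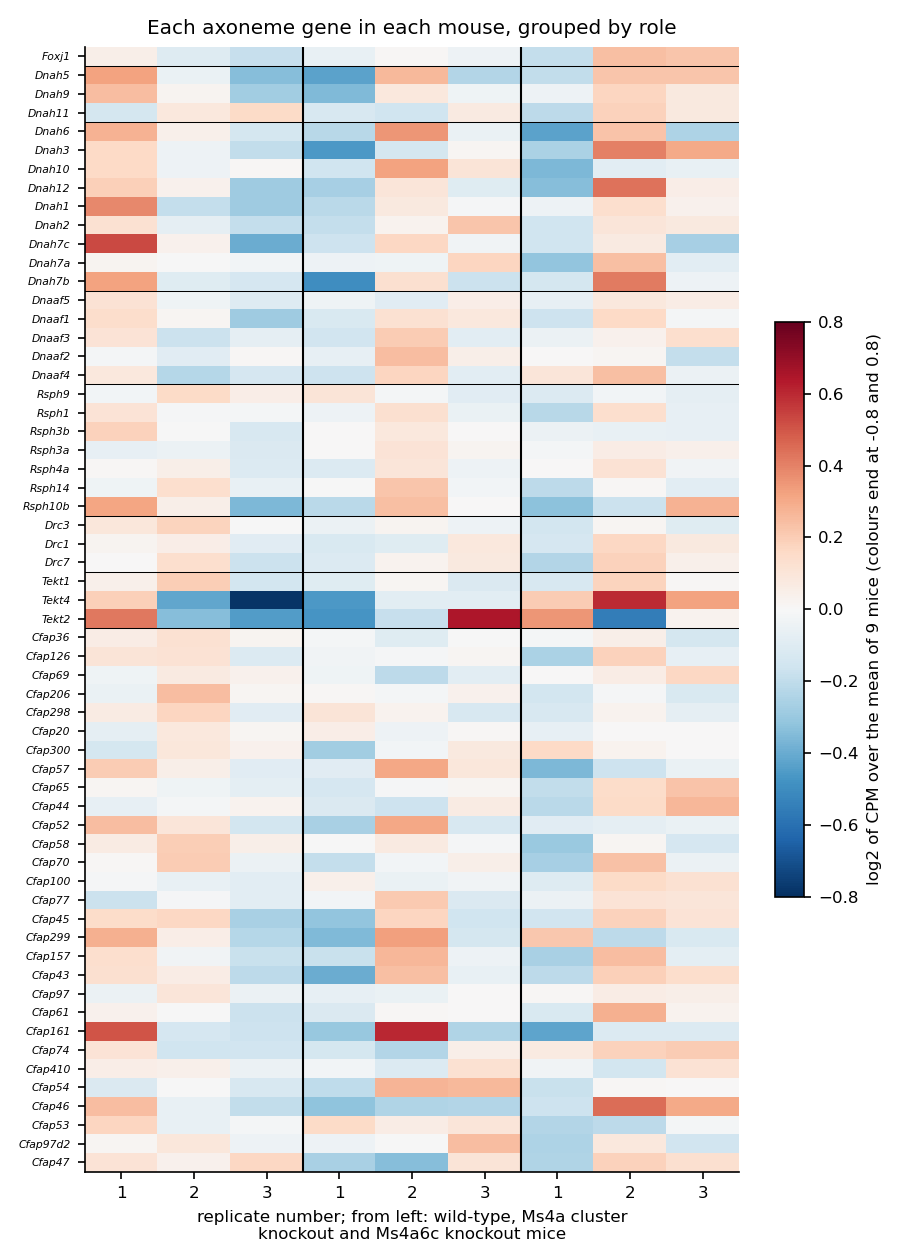
Each row is 1 of the 60 axoneme genes, grouped by role, and each column 1 mouse; colour is the log2 of its CPM over the mean of the 9 mice. Ms4a6c knockout mouse 1 is the lowest for 25 genes and mouse 2 of the same genotype is the highest for 20.

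Many of these genes had higher CPM in the gland-rich libraries than in the other mice of the same genotype. The CPM of each gene in wild-type mouse 1 was divided by the mean of the other wild-type mice, and that in cluster knockout mouse 2 by the mean of the other cluster knockout mice. Of the 60 genes, 33 (55.0%) were above 1 in both and 9 (15.0%) below 1 in both, beside 29.8% and 33.8% of the 12816 genes at this level. The median ratios were 1.09 and 1.05. Cfap161, a protein inside the doublet wall, had ratios of 1.57 and 1.84, Dnah5 1.42 and 1.51, and Dnah6 1.26 and 1.41. Cfap69, Cfap36, Cfap206, Cfap20, Cfap44, Cfap97, Cfap97d2, Dnah11 and Rsph9 were below 1 in both, Dnah11 at 0.834 and 0.910 and Cfap69 at 0.943 and 0.903. Markers of other cells moved with these libraries too. Of 15 respiratory ciliated cell markers outside the set, 11 were above 1 in both and 0 below 1 in both, with median ratios of 1.20 and 1.28. Of 13 mature sensory neuron markers, 12 were below 1 in both, with medians of 0.914 and 0.833. The part of tissue composition in the ratios of the axoneme genes was not tested.

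**Figure D5:**
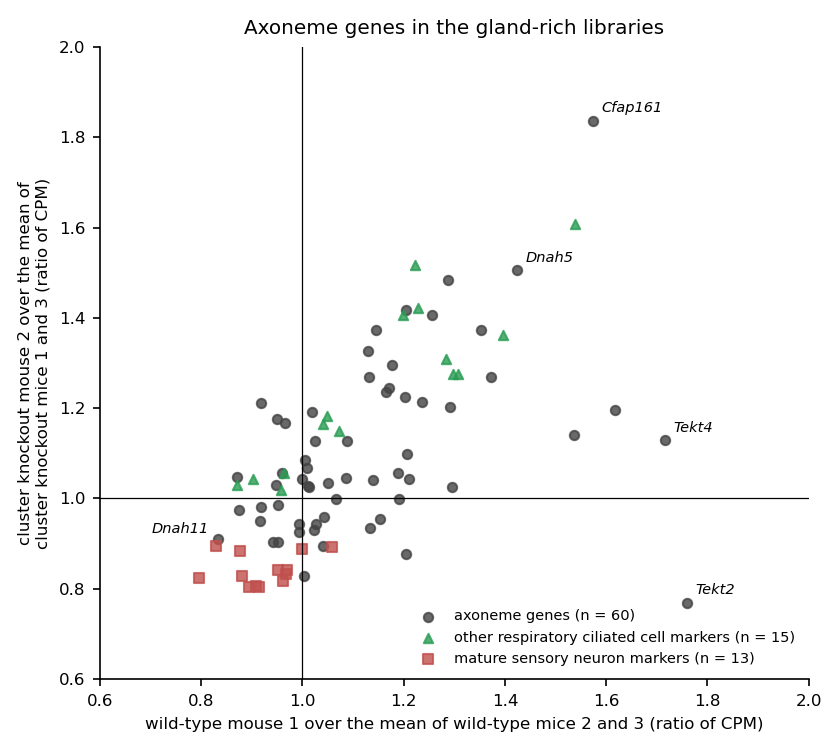
For each gene, the ratio of CPM in the gland-rich wild-type library to the mean of the other wild-type mice (horizontal) and the same ratio in the cluster knockout (vertical), for 60 axoneme genes, 15 other respiratory ciliated cell markers and 13 mature sensory neuron markers. Many axoneme genes and ciliated cell markers lie above 1 on both axes, and 12 of the neuron markers lie below 1 on both.

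Foxj1 was set against 4 marker lists over the 9 mice, as log2(CPM + 0.5). With the 15 respiratory ciliated cell markers the Pearson r was 0.42 (exact permutation p = 0.263, adjusted over the 4 lists 0.824) and the Spearman rho was 0.58 (exact permutation p = 0.108, adjusted 0.432). With 7 mice left after removal of the 2 farthest from the median, r was 0.49. Taken as deviations from the genotype means, r was 0.73 (exact permutation p = 0.0207, adjusted 0.0826), which does not pass the correction. The correlations with the mature neuron, gland and sustentacular cell lists were -0.09, 0.15 and 0.20, with exact permutation p-values of 0.824, 0.704 and 0.604 before adjustment. The points share the library scaling: with plain library size the 4 values were 0.87, 0.86, -0.65 and 0.89, in the order ciliated, neuron, gland and sustentacular.

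Genes that work beside the set were read from the same fit. The other axonemal and assembly genes, a list of 56 with 54 tested, had 0 called by edgeR or DESeq2 in any comparison, with 2, 10 and 5 genes at an unadjusted p under 0.05. These are 3.70%, 18.5% and 9.26% of the list, beside 4.93%, 10.5% and 9.37% of all tested genes, so the share was above that of all genes in the Ms4a6c knockout against wild-type, where 4 of the 10 were higher and 6 lower in the knockout. Tubb4b, the beta-tubulin of axonemes, had 819 ± 7.03, 818 ± 48.2 and 832 ± 2.64 CPM in wild-type, cluster knockout and Ms4a6c knockout mice. Dnaic1, an outer arm intermediate chain, had 15.8 ± 2.69, 14.8 ± 3.20 and 20.8 ± 3.41 CPM, and Dnaic2, its partner chain, had 41.0 ± 6.63, 46.2 ± 6.57 and 38.9 ± 4.49 CPM. Of the 15 respiratory ciliated cell markers, 0 were called in any comparison, and 5 were below wild-type at an unadjusted p under 0.05 in the Ms4a6c knockout, with 4 not overlapping. These are 33.3% and 26.7% of the list, beside 10.5% and 18.3% of all tested genes. The smallest adjusted p among them was 0.226. Dynlrb2, a dynein light chain, was one of them, with 35.2, 44.6 and 40.7 CPM against 51.6, 50.02 and 49.1 CPM (log2 fold change -0.32, SE 0.09, adjusted p = 0.236). Their summed levels overlapped, from 610 to 712 CPM in wild-type, 589 to 716 CPM in the cluster knockout and 552 to 660 CPM in the Ms4a6c knockout. Markers of other cells moved in the same mice. The 6 sustentacular cell markers summed to 18458 to 19984 CPM in the Ms4a6c knockout against 14656 to 15020 CPM in wild-type, and the 8 secretory and goblet cell markers to 1036 to 1233 CPM against 1260 to 1503 CPM, both without overlap. Single markers went both ways: 4 sustentacular markers had positive and 2 negative log2 fold changes. Of the 6 secretory and goblet markers tested, 5 had negative fold changes and 1 was called higher (edgeR adjusted p = 0.0353). The part of these other cells in the values of the ciliated cell markers and axoneme genes was not tested.

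Among 15 ciliogenesis regulators, 0 were called in any comparison by edgeR or DESeq2, with 3, 3 and 2 at an unadjusted p under 0.05, or 20.0%, 20.0% and 13.3%, beside the shares of all tested genes given above. Rfx3, a factor that acts with FOXJ1 on cilia genes, had 79.6, 69.6 and 70.3 CPM in the cluster knockout mice against 81.9, 91.2 and 96.9 CPM in wild-type. The groups did not overlap, at a log2 fold change of -0.30 (SE 0.08, unadjusted p = 0.00364, adjusted p = 0.968). Rfx4 had 8.41, 6.58 and 7.27 CPM against 10.4, 11.9 and 11.3 CPM, also without overlap, at -0.59 (SE 0.14, adjusted p = 0.915). Rfx2 went the other way, with 20.4 ± 3.43 against 17.6 ± 1.07 CPM, which overlap. Of the 15 regulators in this comparison, 7 had positive and 8 negative fold changes, and of the 5 without overlap 2 were higher and 3 lower. Rfx1 in the Ms4a6c knockout had the smallest adjusted p of the regulators, 0.139, at 0.34 (SE 0.08). The members with an RFX pair, Cfap206, Cfap126, Cfap298, Cfap58, Cfap43, Tekt4, Cfap77, Dnaaf5 and Rsph9, overlapped between the cluster knockout and wild-type. Most tested genes overlapped in that comparison, and 9.87% did not. A link between these members and the levels of the RFX factors was not tested.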

How the data were processed

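Poly-A RNA was made into directional libraries, with 1 library per mouse. Reads were aligned with STAR 2.6.1 and quantified with RSEM 1.3.1 on GENCODE M25 (mm10, the GRCm38 build), per the study's methods and the submitters' processing notes; the strand setting of the counting is not given in the sources used here. The authors deposited RSEM expected counts per gene, without normalization or a stated filter, and used DESeq2 1.30.1 in R 4.0.0 or later for their own comparison. Genotypes and replicate numbers came from the sample labels.

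The expected counts were rounded. The 23225 genes with at least 10 counts over 9 mice were scaled by TMM and tested with edgeR 4.0.16 (quasi-likelihood, R 4.3.3), with all mice fitted together, and p-values were adjusted by Benjamini-Hochberg over every tested gene before members were read. A standard error is the log2 fold change over the square root of F. Levels are CPM on TMM-scaled library sizes, and a limit of 3 counts stands for 0. Totals were 13954591 to 21987174; limits cover counting error only, since reads had no molecular identifiers. No pair of replicates agreed within sampling noise (chi-square per degree of freedom of at least 15.1), and nothing says whether mice shared a litter.

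The members, lists and naming rule (the 5 smallest p-values per comparison, the 3 highest per role, near-identical copies) were chosen with earlier results of these data known; a few further genes were named for non-overlapping values, which were seen first. The respiratory ciliated list shares some genes with the list of other axonemal genes. Coordinates and lengths came from GENCODE M21, matched by transcript for 99.6% of genes, promoters from RefSeq, and near-identical transcripts from blast 2.17.0 (at least 90% over 300 bases). On simulated counts of 22786 genes for the Ms4a6c knockout against wild-type, edgeR called 68 of 100 genes changed 2-fold, 97 of 100 changed 4-fold and 18 unchanged genes. Alternatives were DESeq2 size factors, DESeq2 1.42.0, no filter, the default filter of edgeR, a fit of only the compared genotypes, a replicate block, an adjusted p under 0.01 and leaving out each mouse; leaving out the gland-rich libraries and the mean transcript length were added after the data had been seen. Permutation tests used scipy 1.17.1 and figures matplotlib 3.10.9 in Python 3.11.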

Additional observations from a re-analysis of the deposited data

How the results depend on the processing

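The count of axoneme genes called was 0 in each comparison and stayed 0 under every alternative but the next, including a replicate block (0 in each), DESeq2 and each mouse left out in turn. Without the 2 gland-rich libraries 1 gene, Tekt4, was called in the Ms4a6c knockout against wild-type (0.97, adjusted p = 0.0326); without wild-type mouse 1 alone it was not (0.97, adjusted p = 0.0544). Of 192 alternatives for 15 named results, 191 kept their direction and side of the threshold. The Foxj1 change in the cluster knockout ran from -0.00406 without wild-type replicate 3 to 0.111. Same-numbered wild-type and cluster knockout mice had deviations from their genotype means correlated at -0.70, -0.42 and -0.19. Same-numbered pairs with an Ms4a6c knockout mouse ran from -0.21 to 0.18. The gland-rich libraries carry different numbers in wild-type and cluster knockout, so these values cannot tell whether same-numbered mice were paired. The replicate block gave Foxj1 0.04 in the cluster knockout against wild-type. Summed CPM in the Ms4a6c knockout minus wild-type was 0.683; it became 377.7 with plain library size and -0.00587 as mean log2 CPM, and the cluster knockout minus the Ms4a6c knockout went from -90.7 to -454.2 with plain library size. Plain library size also moved Foxj1's Pearson correlations to 0.87 (ciliated), 0.86 (neuron), -0.65 (gland) and 0.89 (sustentacular). Their permutation p-values adjusted over the lists were 0.0110, 0.0206, 0.0594 and 0.0110. The Spearman rho values were 0.73, 0.50, -0.57 and 0.62 in the same order. Their adjusted permutation p-values were 0.124, 0.178, 0.161 and 0.161, none under 0.05. The cause was not tested. The neuron Pearson value was 0.00874 without the 2 farthest mice, and the sustentacular Pearson value -0.26 as deviations from genotype means and -0.0887 without the farthest mice. Precision is limited by 3 mice per genotype and, for Dnah14, Dnah2os, Dnah17 and Tekt5, by at most 22 counts per mouse.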

Other observations

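The genes that build and load cilia of all kinds, motile or not, were also examined. Of 27 intraflagellar transport genes, which carry axoneme parts along the cilium, 0 were called by edgeR or DESeq2 in any comparison, with 2, 2 and 1 at an unadjusted p under 0.05 (7.41%, 7.41% and 3.70%, beside 4.93%, 10.5% and 9.37% of all tested genes). Their summed level was 1798 ± 68.9 CPM in wild-type, 1713 ± 54.9 CPM in the cluster knockout and 1716 ± 66.3 CPM in the Ms4a6c knockout (SD, n = 3). Kif3a, a subunit of the kinesin that drives this transport, had 83.7, 70.7 and 82.1 CPM in the cluster knockout mice against 84.4, 97.2 and 97.5 CPM in wild-type, at a log2 fold change of -0.24 (SE 0.08, edgeR adjusted p = 0.968). Of 11 BBSome genes, which sort membrane proteins into cilia, 0 were called by either tool, with 0, 1 and 0 at an unadjusted p under 0.05, and their sum was 606 ± 30.5, 571 ± 25.6 and 593 ± 26.6 CPM.

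The same ratios were taken in the gland-rich libraries. Of 25 intraflagellar transport genes at 5 CPM or more, 6 were above 1 in both ratios and 11 below, with medians of 0.985 and 0.940. Of 11 BBSome genes, 1 was above and 6 below, with medians of 0.931 and 0.910.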
